A study of Mus musculus with 84 samples.

Results

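De novo lipogenesis, the making of fatty acids from carbohydrate, was followed in the chromatin of mouse adipocytes through 10 genes of the 21851 protein-coding genes that had a promoter in the annotation. They were Mlxipl and Srebf1, which encode the transcription factors ChREBP and SREBP1, and 8 genes of enzymes, Acly, Me1, Acaca, Acacb, Fasn, Elovl6, Scd1 and Scd2. The genes were taken by name for their place in the pathway. Nuclei came from the epididymal fat of male AdipoERCre x NuTRAP mice, of a background the labels spell C576BL6, in which tamoxifen switches on a Cre recombinase in adipocytes and the recombined cells carry biotin on their nuclei. Every group, controls included, shared this genotype and had received tamoxifen before the diets began, so the label marks adipocytes of that time, and nuclei were pulled down by their biotin.

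The groups were named C (chow, 18 weeks of age), H (12 weeks of high-fat diet, 18 weeks of age), CC_s (chow, 26 weeks of age), HC (12 weeks of high-fat diet and 8 weeks back on chow, 26 weeks of age), CC_l (chow, 31 weeks of age), HH (25 weeks of high-fat diet, 31 weeks of age), CCC (chow, 39 weeks of age) and HHC (25 weeks of high-fat diet and 8 weeks back on chow, 39 weeks of age). CUT&Tag, which cuts out the DNA around an antibody-bound histone mark with a tethered transposase, gave 84 libraries, 21 for H3K4me3, 21 for H3K27ac, 22 for H3K4me1 and 20 for H3K27me3, in groups of 3 or 2 that the labels call biological replicates. Per the study, the marks were assayed on adipocyte nuclei of the same fat depots, so results of different marks are not independent of each other. Obese mice were compared with chow controls of the same age, H with C and HH with CC_l, and mice after weight loss likewise, HC with CC_s and HHC with CCC.

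In lipogenesis, citrate is cleaved to acetyl-CoA, acetyl-CoA is carboxylated to malonyl-CoA, and fatty acid synthase builds palmitate from both with NADPH, after which the chain is elongated and desaturated. ChREBP is activated by products of glucose metabolism and SREBP1 by insulin, and both bind the promoters of these enzymes. Mlxipl is also read from a start site upstream of its main one, which yields the shorter form ChREBP-beta, a form known for its strong activity and for following lipogenesis in fat. H3K4me3 sits at start sites in use, H3K27ac at working promoters and enhancers, H3K4me1 around enhancers, and H3K27me3 where polycomb represses.

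A promoter was the region within 2000 bp of each start of a protein-coding transcript in the basic GENCODE annotation, and its coverage was the percent of that window under peaks of a library. Coverage was compared as diet minus control, in percentage points, averaged over the 12-week and the 25-week cohorts, with a two-sided exact permutation test within cohorts, whose smallest possible p lay between 0.005 and 0.0167. A site was called lost where every library of the control group had a peak and none of the diet group, and gained for the opposite. The peak lists hold no read depth, and the height of a peak cannot be compared between libraries, so a window without a peak is not shown to lack the mark. Each library pools many nuclei, and fewer cells with a mark cannot be told apart from less of it in each cell.

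The 84 lists differed in size, with 11248 to 46396 peaks, median peak widths of 332 to 2658 bp and 8.52 to 132.7 Mb covered. The H libraries had narrow H3K27ac peaks, with median widths of 477 to 801 bp against 1372 to 1765 bp in C, and their H3K4me3 peaks covered 11.02 to 30.20 Mb against 41.02 to 53.34 Mb. Of 8 adipocyte marker promoters, the H3K4me3 libraries marked all in every control and 5 to 8 in the diet groups. Of 6 macrophage marker promoters, they marked 0 to 3 in the controls, 6 in every HH and HHC library, 6, 6 and 0 in H, and 0, 1 and 5 in HC. The 4 lymphocyte markers had 0 marked in the controls and in H, 1 in both HH libraries and 2 to 4 in HHC, and of 4 endothelial markers 0 were marked in every CC_s library against 1 to 4 in HC, 1 in both CCC libraries against 3 to 4 in HHC, 1 to 3 in C against 4, 4 and 0 in H, and 2 to 4 in CC_l against 4 in HH. The macrophage, lymphocyte and endothelial markers thus moved with the diets, and their part in the results was not tested. In 4 H3K4me3 libraries (HH replicates 2 and 3, replicate 2 of CC_l and replicate 3 of CCC) the title and the treatment field of the labels disagree on the group. The titles were followed, and the value under the treatment field is given where it changes a call.

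Start-site sequences are shown for the windows on which the results at Mlxipl, Acaca and Elovl6 turn, from 250 bases before to 50 bases after the start on the plus strand of GRCm38.p6, taken from RefSeq. For the main start of Mlxipl the sequence is set from position 135106891. The promoter measured below is set from the GENCODE start close by, at 135106918. Capitals mark matches, on either strand, to an E-box (CACGTG), a sterol regulatory element core (TCACNCCAC) or a CCAAT box (CCAAT, read as ATTGG on the other strand). The first is the upstream start of Mlxipl, chr5:135089640-135089939, the second its main start, chr5:135106641-135106940, the next pair the second start and the third start of Acaca, chr11:84172872-84173171 and chr11:84179581-84179880, and the last the second start of Elovl6, chr3:129552130-129552429.
Mlxipl upstream start: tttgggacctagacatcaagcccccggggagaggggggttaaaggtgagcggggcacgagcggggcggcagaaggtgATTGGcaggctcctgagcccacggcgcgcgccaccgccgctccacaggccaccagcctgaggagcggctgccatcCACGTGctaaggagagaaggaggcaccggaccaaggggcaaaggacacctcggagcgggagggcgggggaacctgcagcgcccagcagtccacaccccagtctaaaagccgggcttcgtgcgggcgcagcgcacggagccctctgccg
Mlxipl main start: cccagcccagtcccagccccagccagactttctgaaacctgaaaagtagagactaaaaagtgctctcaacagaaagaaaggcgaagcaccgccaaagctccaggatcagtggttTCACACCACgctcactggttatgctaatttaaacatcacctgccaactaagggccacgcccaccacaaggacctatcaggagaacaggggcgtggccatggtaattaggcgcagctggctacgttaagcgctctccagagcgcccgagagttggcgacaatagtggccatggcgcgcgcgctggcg
Acaca start 2: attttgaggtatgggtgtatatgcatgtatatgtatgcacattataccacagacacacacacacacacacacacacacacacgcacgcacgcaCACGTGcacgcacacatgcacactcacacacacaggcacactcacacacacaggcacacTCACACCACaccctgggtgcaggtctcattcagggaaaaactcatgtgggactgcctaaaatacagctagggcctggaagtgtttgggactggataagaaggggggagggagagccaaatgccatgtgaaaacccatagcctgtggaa
Acaca start 3: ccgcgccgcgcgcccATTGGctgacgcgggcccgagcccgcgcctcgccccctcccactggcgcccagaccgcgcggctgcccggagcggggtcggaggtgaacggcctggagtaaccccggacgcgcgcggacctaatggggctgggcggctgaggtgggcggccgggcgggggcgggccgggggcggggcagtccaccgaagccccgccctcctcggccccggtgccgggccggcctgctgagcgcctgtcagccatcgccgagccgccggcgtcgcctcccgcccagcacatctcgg
Elovl6 start 2: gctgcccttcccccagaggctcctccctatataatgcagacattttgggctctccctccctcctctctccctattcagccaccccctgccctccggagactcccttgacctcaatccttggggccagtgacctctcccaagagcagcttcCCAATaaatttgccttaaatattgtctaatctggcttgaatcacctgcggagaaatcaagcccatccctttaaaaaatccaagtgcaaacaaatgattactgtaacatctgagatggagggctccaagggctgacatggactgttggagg

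The upstream start of Mlxipl held an E-box and a CCAAT box, and its main start a sterol regulatory element core. The second start of Acaca held an E-box and a sterol regulatory element core, while the third start of Acaca and the second start of Elovl6 held only a CCAAT box among these motifs. Of 32851 RefSeq promoters of the same length, 7.15% held the E-box, 1.24% the sterol regulatory element core and 37.4% the CCAAT box. RefSeq promoters were matched for 8 of the 10 genes, at 12 start sites, of which 1 held the E-box, 1 the sterol regulatory element core, 7 the CCAAT box and 1 the TATA box TATAAA, which 13.6% of all promoters held. The carbohydrate response element, the paired E-box-like motif that ChREBP is known to bind, had 0 matches at these 12 and was held by 0.119% of all promoters. A match to such letters is a description of the sequence and does not show that a factor binds there.

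Across the 10 genes and the 4 marks, 80 promoter tests were made, and 17 had an unadjusted exact p under 0.05. In 14 of them coverage was lower in the diet groups, and the 3 with higher coverage were all at Mlxipl. The active marks gave 5 lower genes of 10 for H3K27ac in obesity (Acly, Me1, Acaca, Acacb and Scd1), where 14.7% of all promoters tested had such a p and a lower value, and 2 of 10 for H3K4me3 in obesity (Acaca and Fasn) against 3.67%. After weight loss, H3K4me3 was lower at 4 of 10 (Acly, Acaca, Acacb and Scd1) against 1.26%, and H3K27ac at 1 (Acaca) against 0.378%. No gene of the 10 was higher in these marks, where the share of all promoters was 0.0132% for H3K4me3 and 0.557% for H3K27ac in obesity, and 3.19% and 1.55% after weight loss. After Benjamini-Hochberg adjustment over all promoters, 0 promoters passed 0.05 in any of the 8 comparisons, and the smallest adjusted p, in the obese H3K27ac comparison, was 0.237.

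For H3K4me1, 1 gene was lower (Acaca, against 1.6% of all promoters) and 1 higher (Mlxipl, against 2.09%) in obesity, and after weight loss 1 was lower (Me1, against 0.566%) and none higher (1.3%). H3K27me3 was higher at Mlxipl in both comparisons, against 0.798% of promoters in obesity and 1.44% after weight loss, and lower at none, against 6.01% and 7.9%. For H3K27ac the median of the 10 genes lay below that of all promoters in each cohort. In the 12-week cohort, the median H3K27ac difference of the 10 was -50.5 points in obesity and -34.7 points after weight loss, where the median of all promoters was -12.1 and -1.76 points. In the 25-week cohort it was -10.6 and -11.0 points, where all promoters had medians of -0.0104 and 20.9 points. All promoters here are those with a peak in the comparison, not matched for coverage in the controls. Mean H3K27ac coverage of the 10 genes in C ran from 18.9% (Me1) to 96.4% (Scd1). The median over marked promoters was 33.2% to 40.1% in the C libraries and 12.0% to 20.7% in the H libraries. The part of control coverage in these differences was not tested.

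**Figure D1:**
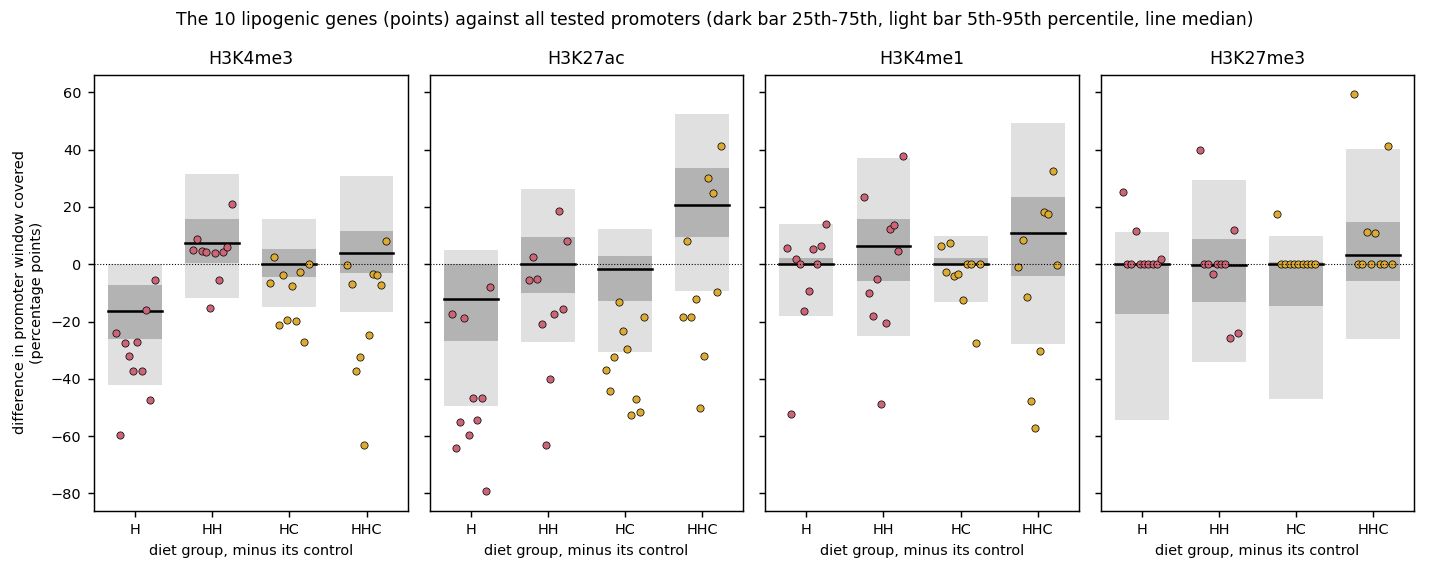
Differences in promoter coverage (diet minus control, percentage points) of the 10 genes for each mark and cohort, beside the median of all promoters. H3K27ac lay below zero for all 10 genes in H and in HC, with medians of -50.5 and -34.7 points.

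Of 160 possible calls at these promoters, 8 were made, the loss of H3K4me3 at Acaca in H and in HHC, the loss of H3K27ac at Me1, Acaca and Elovl6 in H, and the gain of H3K27me3 at Mlxipl in H, HC and HHC. With the treatment field 7 were made. Among all promoters tested, H3K4me3 was lost at 1.71% in H, 0.0183% in HC, 0.481% in HH and 0.375% in HHC, and gained at 0.00458%, 0.32%, 1.32% and 1.39%. H3K27ac was lost at 1.94%, 0.499%, 0.403% and 0.0686% and gained at 0.146%, 0.297%, 0.448% and 2.32% of them in the same order. H3K27me3 was gained at 1.29%, 0.165%, 1.05% and 1.37% and lost at 1.61%, 0.828%, 0.943% and 0.732%. H3K4me1, gained or lost at 0.911%, 0.316%, 2.7% and 4.47%, gave no call at the 10 genes.

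Mlxipl (chr5:135089890-135138382, plus strand, GRCm38) encodes ChREBP. Its protein-coding promoter, around the main start at position 135106918, carried an H3K4me3 peak in all 21 libraries and an H3K27me3 peak in 1 of 10 control and 10 of 10 diet libraries. H3K27me3 coverage was 0% in the 3 C libraries and 29.8% and 20.8% in the H libraries, and 0% in the 3 CC_s libraries against 13.5%, 2.97% and 35.9% in HC. In the longer cohort it was 40.96% and 0% in CC_l against 70.3% and 50.1% in HH, and 0% in both CCC libraries against 98.9%, 46.1% and 32.9% in HHC. In every cohort the diet libraries lay above the controls without overlap, and a single control library, CC_l replicate 1, carried a peak in this window. The widest of these peaks measured 611 to 831 bp in H, 119 to 1438 bp in HC, 2742 to 4791 bp in HH and 2247 to 6267 bp in HHC, and 1820 bp in that control. CCC replicate 1 had peaks just outside the window, from 2.364 to 3.606 kb and from 3.951 to 4.992 kb after the main start. The 0% in that library and the gain called in HHC thus depend on the width of the window.

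The difference at this promoter was 32.5 points in obesity (25.3 in the 12-week and 39.7 in the 25-week cohort, exact p = 0.0167, the smallest possible) and 38.4 points after weight loss (17.5 and 59.3, exact p = 0.025), and the adjusted p was 0.395 and 0.383. Mlxipl was named with this pattern already known from these lists, so the tests are no independent support for it. Without any single C library the obese test gave an exact p of 0.0556 and without HH replicate 2 a difference of 27.5 points with p = 0.133, and without CCC replicate 1 or 3 the weight loss test gave p = 0.138. H3K27me3 peaks covered less of the genome in H (16.8 to 19.9 Mb) than in C (43.01 to 64.13 Mb). At the 8575 promoters with an H3K4me3 peak in every H3K4me3 library, H3K27me3 peaks marked 1.62% to 2.65% in C and 5.39% to 5.57% in H, 5.12% to 11.4% in CC_l and 8.00% to 9.27% in HH, 1.98% to 2.37% in CC_s and 3.18% to 5.36% in HC, and 3.94% to 5.96% in CCC and 4.26% to 12.7% in HHC. Of the 8 adipocyte marker promoters, H3K27me3 peaks marked 1 to 2 in both C and H, and 1 to 3 in both CC_l and HH. They marked 1 in every CC_s library and 2 to 3 in HC, and 1 in both CCC libraries and 3 to 5 in HHC. The part of these changes at other promoters in the result at Mlxipl was not tested.

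Over the Mlxipl gene with 50 kb on either side, H3K27me3 peaks covered 0, 1.80 and 4.23 kb in C and 6.51 and 4.70 kb in H, and 1.38, 0.840 and 0 kb in CC_s against 3.49, 0.610 and 7.26 kb in HC. In the longer cohort they covered 9.83 and 0 kb in CC_l against 31.2 and 14.1 kb in HH, and 5.94 and 0 kb in CCC against 25.8, 13.9 and 24.5 kb in HHC. The groups did not overlap except HC with CC_s, where HC replicate 2 lay below 2 controls. As a percent of this 148 kb locus the difference was 7.18 points in obesity (exact p = 0.0333, adjusted p = 0.359) and 7.23 points after weight loss (exact p = 0.03, adjusted p = 0.311), where 1.69% and 4.06% of all genes had such a p and a higher value, against 1 of 10 here in each. The obese p was above 0.05 without any single C library (0.0556), H replicate 1 (0.0833), CC_l replicate 1 (0.1), CC_l replicate 2 (0.3) or HH replicate 2 (0.133, at 4.29 points), and the weight loss p was 0.05 without CC_s replicate 3, HC replicate 3 or any single HHC library. The promoters of the neighbouring genes Bud23, Dnajc30, Tbl2, Bcl7b and Baz1b had an H3K27me3 peak in 0 of 20 libraries and Vps37d in 3 of 20.

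**Figure D2:**
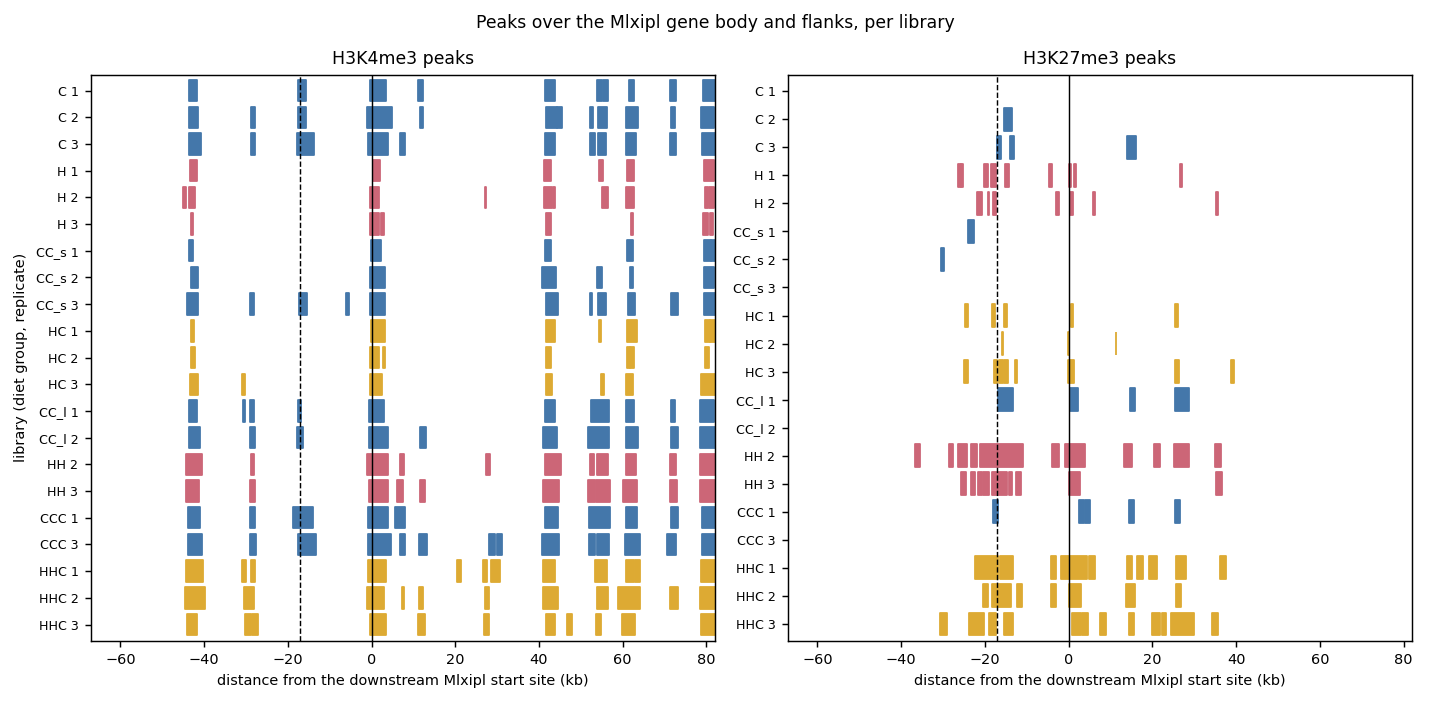
H3K4me3 peaks (left) and H3K27me3 peaks of the 20 libraries (right) around Mlxipl, one line per library. The x axis gives the distance from the main start in kb, with the main start as a solid and the upstream start as a dashed line. H3K27me3 peaks within 2000 bp of the main start, not all of them over the start itself, are drawn in all 10 diet libraries and in 1 of 10 control libraries.

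The upstream start of Mlxipl lies 17.001 kb before the main one, taken here at position 135106891. It is annotated in GENCODE for a processed transcript, so it lies outside the promoter. It was added with other RefSeq and GENCODE starts after the data were seen, so that the 10 genes had 20 start-site windows. H3K4me3 covered 45.2%, 44.2% and 73.0% of the upstream window in C, 22.6% and 35.1% in CC_l, 94.3% and 65.4% in CCC and 0%, 0% and 46.6% in CC_s. It covered 0% in all 11 diet libraries. The mark was thus found in 8 of 10 control and 0 of 11 diet libraries, and only CC_s overlapped its diet group. The difference was -41.5 points in obesity (exact p = 0.0167, the smallest possible) and -47.7 points after weight loss (exact p = 0.05). As a description of a window picked for this pattern, windows marked in at least 5, 6, 7 or 8 of the 10 control libraries and in no diet library numbered 10 of 13908, 5 of 13465, 3 of 13043 and 1 of 12433, and the last count uses this window's own number of marked controls.

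The result at the upstream start depended on which peaks and labels were used. With the 4 libraries grouped by their treatment field, 6 of 10 control and 2 of 11 diet libraries were marked and the obese difference was -7.59 points (exact p = 0.7). With equal numbers of peaks per library it was -19.7 points (exact p = 0.4), and with the stronger peaks of each library, those above its median signal, -27.1 points (exact p = 0.1). H3K27me3 covered the same window at 0%, 9.57% and 25.3% in C and 34.7% and 22.4% in H, which overlap. It covered 0% in the 3 CC_s libraries and 24.0%, 9.17% and 51.1% in HC, 45.9% and 0% in CC_l and 100% and 81.0% in HH, and 31.0% and 0% in CCC and 86.7%, 81.3% and 47.2% in HHC, without overlap. The difference was 42.2 points after weight loss (exact p = 0.01) and 42.2 points in obesity (exact p = 0.05). H3K27ac was found there in 0 of 21 libraries and H3K4me1 in 1 of 22, CCC replicate 3.

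**Figure D3:**
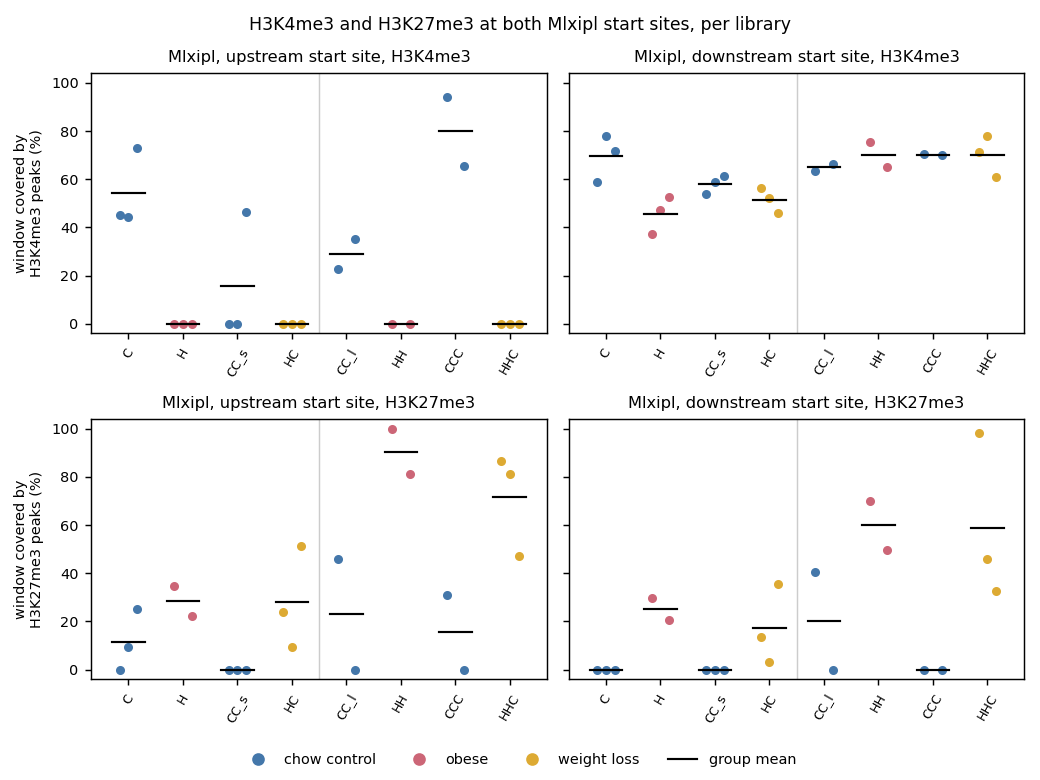
Percent of the window covered by H3K4me3 and H3K27me3 peaks at the upstream and the main start of Mlxipl, one point per library, by diet group. At the upstream start H3K4me3 reaches 94.3% in the controls and is 0% in all 11 diet libraries, and at the main start it is present in all 21 libraries.

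At the main Mlxipl start no H3K4me3 or H3K27ac test had a p under 0.05, and H3K4me1 had 1 in obesity. H3K4me3 covered 59.4% to 78.4% of the promoter in C and 37.6% to 52.8% in H, without overlap, but 64.0% and 66.9% in CC_l and 75.8% and 65.4% in HH, which overlap. H3K27ac was present in 9 of 9 control and 10 of 12 diet libraries. H3K4me1 was 0.5999%, 0.225% and 0% in C against 13.2%, 0% and 4.399% in H, and 14.5% and 36.8% in CC_l against 59.0%, 47.5% and 40.7% in HH. The groups overlapped after 12 weeks and not after 25 weeks, and the obese H3K4me1 difference of 14.5 points (exact p = 0.02) was made up of 5.61 and 23.4 points in these cohorts. It was 8.93 points with an exact p of 0.175 without CC_l replicate 1, had p = 0.05 without CC_l replicate 2 and p = 0.0667 without any single HH library, and had the opposite sign with a window of 5000 bp either side (-0.62 points).

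By the promoter H3K27me3 pattern over the 20 libraries, the genes most like Mlxipl were Fst, marked and unmarked in the same 20 of 20 libraries, and Mycl, Igfbp5, Tshr and Fam110c, in 19 of 20 each. Pearson correlations of their coverage with that of Mlxipl, a description over libraries that share their preparation, were 0.872 for Fst, 0.923 for Mycl, 0.916 for Igfbp5, 0.86 for Tshr and 0.804 for Fam110c.

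Srebf1 (chr11:60199089-60222581, minus strand), whose product SREBP1 answers to insulin and drives lipogenic genes, had H3K4me3 at both of its start sites, 12.1 kb apart, in 21 of 21 libraries. H3K27ac at its promoter was 100%, 75.6% and 54.5% in C and 37.6%, 0% and 0% in H, but 92.9% in both CC_l libraries and 89.6%, 100% and 96.4% in HH. The groups were apart after 12 weeks and overlapped after 25 weeks, and none of the Srebf1 promoter tests had a p under 0.05. The widest H3K4me3 peak over its promoter was 5044 to 6390 bp in C and 856 to 1968 bp in H. It was 1694 to 2141 bp in CC_s and 1346 to 4273 bp in HC, which overlap. In the longer cohort it was 2022 to 8526 bp in CC_l and 6840 to 9059 bp in HH, and 9261 to 30724 bp in CCC and 4758 to 8744 bp in HHC. H3K27me3 was found at the promoter of Srebf1, and at those of Acly, Acaca and Fasn, in 0 of 20 libraries.

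Acly (chr11:100476353-100528000, minus strand) encodes ATP citrate lyase, which frees acetyl-CoA from citrate. H3K4me3 covered 48.5%, 61.6% and 90.1% of its promoter in CC_s and 50.3%, 40.7% and 45.5% in HC, and 96.8% and 96.5% in CCC against 63.4%, 63.6% and 51.2% in HHC. The HHC libraries all lay below the CCC libraries, while HC and CC_s overlapped. The weight loss difference was -29.3 points (-21.3 and -37.3 in the cohorts, exact p = 0.01), and it kept p under 0.05 without any single library and with the treatment field (-20.9 points). H3K27ac was 61.3%, 67.8% and 54.3% in C and 5.04%, 8.53% and 4.45% in H, far below, but 68.0% and 66.2% in CC_l and 59.1%, 51.9% and 74.9% in HH, which overlap. The obese H3K27ac difference was -30.1 points (-55.1 and -5.07, exact p = 0.03) and had p = 0.05 without CC_l replicate 1, HH replicate 1 or HH replicate 2.

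Me1 (chr9:86581371-86695953, minus strand) encodes malic enzyme, a source of NADPH for fatty acid synthesis. H3K27ac covered 21.3%, 12.9% and 22.4% of its promoter in C and 0% in the 3 H libraries, which was a call of loss, and 42.7% and 27.4% in CC_l against 0%, 33.1% and 9.82% in HH, with overlap. The obese difference was -19.8 points (-18.9 and -20.8, exact p = 0.03). It had an exact p of 0.05 without any single C library and was -16.0 points with p = 0.075 without CC_l replicate 1. A peak of H3K27ac was present in 8 of 9 control and 3 of 12 diet libraries. H3K4me1 after weight loss was 42.1% and 65.9% in CCC and 0%, 18.4% and 0% in HHC, while CC_s and HC reached at most 9.77%. That difference of -25.9 points (exact p = 0.02) was made up of -3.95 and -47.9 points in the cohorts and had p = 0.05 without CCC replicate 1 or 3 and p = 0.0667 without any single HHC library.

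**Figure D4:**
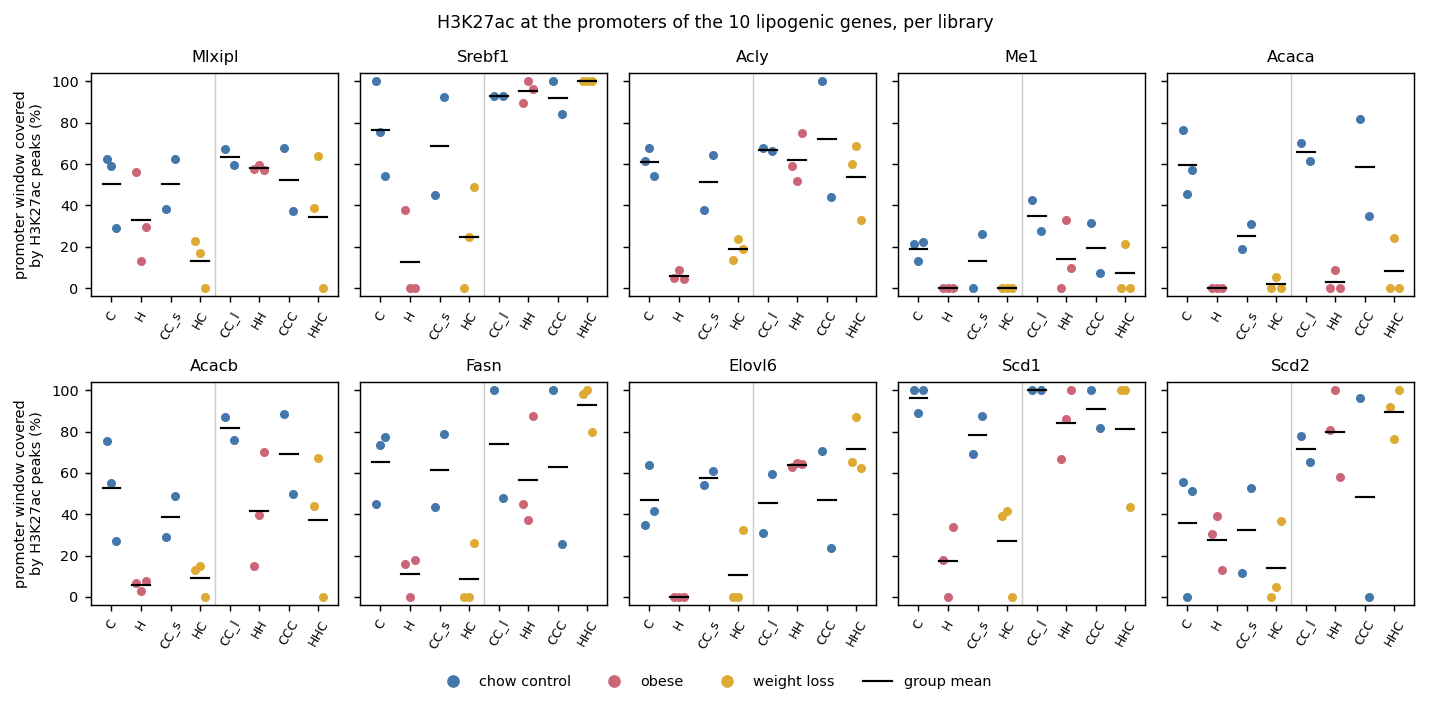
Percent of the promoter window covered by H3K27ac peaks for each of the 10 genes, one point per library and a line at the group mean, by diet group. Acaca, Me1 and Elovl6 are at 0% in all 3 H libraries, and Acaca is at 0% in 2 of 3 HC, HH and HHC libraries.

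Acaca (chr11:84129672-84401651, plus strand) encodes acetyl-CoA carboxylase 1, which makes the malonyl-CoA used for synthesis, and 5 of its 8 promoter tests had a p under 0.05. H3K27ac covered 76.4%, 45.3% and 57.1% of its promoter in C and 0% in the 3 H libraries, and 70.2% and 61.7% in CC_l against 0%, 8.99% and 0% in HH. It covered 19.1% and 31.2% in CC_s against 0%, 5.52% and 0% in HC, and 81.8% and 34.97% in CCC against 0%, 24.2% and 0% in HHC. In each of the 4 pairs every diet library lay below every control library. The difference was -61.3 points in obesity (exact p = 0.005, adjusted p = 0.237) and -36.8 points after weight loss (exact p = 0.01), each the smallest p possible, and no library left out on its own brought either p to 0.05. Without HC replicate 3, HH replicate 1 and HHC replicate 3 together, the H3K27ac libraries that marked only 5 or 6 of the 8 adipocyte promoters, the differences were -60.5 points (exact p = 0.0167) and -34.3 points (exact p = 0.0556, the smallest that this omission allows). In the 3 diet libraries whose H3K27ac peaks marked 0 of 6 macrophage and 8 of 8 adipocyte promoters, coverage at Acaca was 0% (H replicate 3), 0% (HC replicate 1) and 5.52% (HC replicate 2). These 3 lists were small, with 12173, 15157 and 22077 peaks over 9.58, 11.6 and 23.4 Mb. The H3K27ac peaks of C covered 42.7 to 48.95 Mb and those of CC_s 25.2 to 43.8 Mb. The part of list size and of other cell types in these values was not tested.

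H3K4me3 at the Acaca promoter was 31.0%, 30.8% and 50.1% in C and 0% in H, and 27.3% and 39.3% in CC_l against 0% and 36.4% in HH. After weight loss it was 0%, 15.6% and 43.2% in CC_s against 0% in HC, and 64.7% and 61.3% in CCC against 0% in HHC. A peak was present in 9 of 10 control and 1 of 11 diet libraries, HH replicate 3. The differences were -26.2 points in obesity (exact p = 0.0333) and -41.3 points after weight loss (exact p = 0.02). The obese p was 0.0667 without any single H library or HH replicate 2 and 0.15 without CC_l replicate 2, and the weight loss p was 0.05 without CCC replicate 1 or 3 and 0.0667 without any single HHC library. With the treatment field the differences were -9.41 points (exact p = 0.5) and -26.0 points (exact p = 0.08). H3K4me1 was lower in obesity as well (-32.6 points, exact p = 0.01), with 50.8% and 57.5% in CC_l and 0%, 16.1% and 0% in HH, and this held without any single library.

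Acaca has 4 start-site windows, at 0, 43.5, 50.2 and 65.8 kb from its first start, and the second and the fourth make up the promoter above, since the transcripts of the others are not in the basic annotation. H3K4me3 marked the third in 21 of 21 libraries and the first in 20 of 21, but the second in 9 of 10 control and 1 of 11 diet libraries. In the second window H3K27ac was 66.2%, 36.3% and 61.1% in C and 0% in H, 59.3% and 62.3% in CC_l and 0%, 18.0% and 0% in HH, 17.7% and 62.3% in CC_s and 0%, 11.05% and 0% in HC, and 63.7% and 65.2% in CCC and 0%, 31.1% and 0% in HHC. No pair of groups overlapped, and the differences were -54.7 points (exact p = 0.005) and -45.2 points (exact p = 0.01), which no single library left out changed. In the fourth window H3K27ac was present in 8 of 9 control and 1 of 12 diet libraries (obese -67.9 points, exact p = 0.005).

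At the third Acaca start H3K27ac stayed present in 21 of 21 libraries but covered 100%, 79.9% and 95.2% in C and 23.8%, 20.95% and 18.2% in H, and 100% in both CC_l libraries against 59.5%, 62.2% and 93.8% in HH. The groups did not overlap, and the obese difference was -49.4 points (exact p = 0.01). After weight loss it was 2.46 points (exact p = 1), and CCC replicate 3, whose H3K27ac list was short at 14915 peaks, had 4.47% there. H3K4me3 at this start was lower in obesity by the same comparison (-33.9 points, exact p = 0.0333) and after weight loss (-22.7 points, exact p = 0.015). With the treatment field these were -21.2 points (exact p = 0.1) and -22.5 points (exact p = 0.015).

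**Figure D5:**
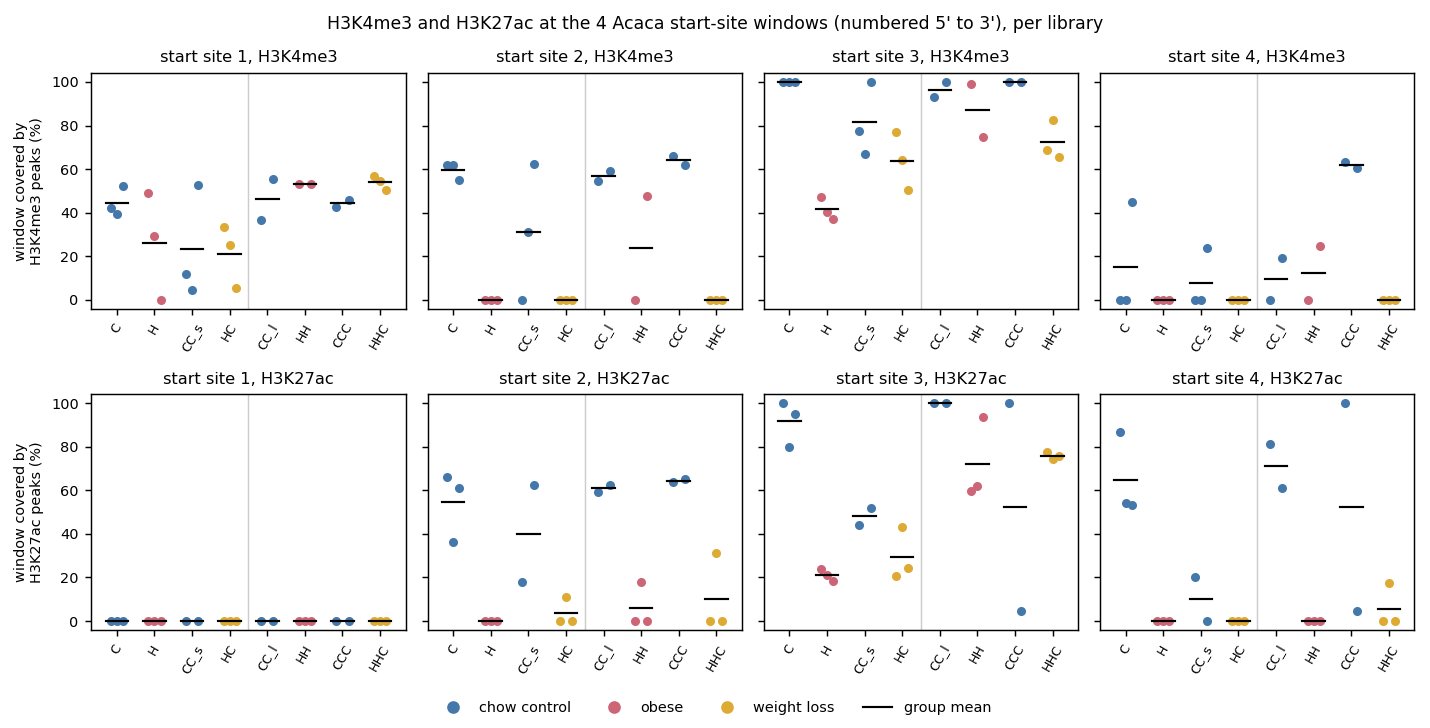
Percent of each of the 4 Acaca start-site windows covered by H3K4me3 and H3K27ac peaks, one point per library, by diet group. The third window is marked in all 21 libraries of both marks, and the second by H3K27ac in 9 of 9 control and 3 of 12 diet libraries.

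Acacb (chr5:114146535-114250761, plus strand) encodes acetyl-CoA carboxylase 2, whose malonyl-CoA restrains fatty acid oxidation. H3K27ac covered 75.3%, 55.2% and 26.99% of its promoter in C and 6.71%, 2.81% and 7.44% in H, and 87.2% and 75.8% in CC_l against 15.1%, 39.8% and 70.0% in HH. All H and HH libraries lay below their controls, and the difference of -43.4 points (exact p = 0.01) kept p under 0.05 without any single library. H3K4me3 after weight loss was 25.8%, 26.2% and 29.7% in CC_s against 23.5%, 21.8% and 13.8% in HC, and 51.2% and 50.4% in CCC against 37.0%, 41.6% and 0% in HHC, again without overlap. That difference was -16.1 points (exact p = 0.045), fell short of 0.05 without any single CC_s or CCC library or HC replicate 3 (p from 0.05 to 0.263), and was -11.6 points with p = 0.23 under the treatment field. Another Acacb start, 29.4 kb into the gene and outside this promoter, carried H3K4me3 in 21 of 21 libraries. H3K27ac there differed by -17.4 points in obesity (-39.1 and 4.23 in the cohorts, exact p = 0.2). After weight loss it differed by -5.87 points (exact p = 0.79). H3K4me3 at that start differed by -12.8 points in obesity (exact p = 0.35) and -0.796 points after weight loss (exact p = 0.865).

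Fasn (chr11:120805846-120824547, minus strand) encodes fatty acid synthase, and its H3K4me3 peaks were among the widest here. The widest over its promoter was 7284 to 14776 bp in C and 986 to 2611 bp in H, and 14866 to 21429 bp in CCC against 4060 to 7554 bp in HHC. Promoter coverage was 76.1%, 100% and 100% in C and 64.1%, 60.3% and 39.6% in H, and 91.5% and 92.6% in CC_l against 84.6% and 88.6% in HH, without overlap. The obese difference was -21.4 points (exact p = 0.0167), had p = 0.05 without H replicate 3, and was -15.5 points with p = 0.183 under the treatment field. H3K27ac covered 45.05%, 73.5% and 77.5% in C and 15.9%, 0% and 17.6% in H, and 100% and 47.8% in CC_l against 45.1%, 37.2% and 87.5% in HH, which overlap. Its obese difference of -35.7 points had an exact p of 0.05 and did not pass.

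Elovl6 (chr3:129532355-129638495, plus strand) encodes the elongase that turns palmitate into stearate. H3K27ac covered 34.9%, 63.8% and 41.5% of its promoter in C, 0% in the 3 H libraries, a call of loss, and 0%, 0% and 32.1% in HC against 54.3% and 61.1% in CC_s. After 25 weeks the order was the opposite, with 31.0% and 59.6% in CC_l and 62.9%, 64.7% and 64.5% in HH. No Elovl6 promoter test over both cohorts passed. H3K4me3 was present there in 21 of 21 libraries.

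At the second start of Elovl6, 20.025 kb into the gene, H3K4me3 covered 48.1% and 35.6% in HH and 57.1%, 84.8% and 38.8% in HHC, and 0% in the other 16 libraries. H3K27ac covered 30.3%, 35.7% and 46.96% in HH and 59.2%, 49.5% and 46.7% in HHC, and 0% in the other 15. H3K4me1 was found in 3 of 12 diet and 0 of 10 control libraries. This window was gained in both groups of the 25-week cohort for H3K4me3, where 1.6% of windows were gained in HH and 1.58% in HHC, and for H3K27ac, where the shares were 0.48% and 2.36%. By their treatment fields both HH H3K4me3 libraries, which carry the mark here, would belong to control groups, 1 to CC_l and 1 to CCC. The H3K4me3 gains in HH and in HHC therefore both rest on the titles, and the H3K27ac libraries have no such conflict. HH and HHC are also the groups in which every H3K4me3 library marked all 6 macrophage marker promoters, and the part of other cell types in this gain was not tested.

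Scd1 (chr19:44394455-44407879, minus strand) encodes the main stearoyl-CoA desaturase of fat. H3K27ac covered 100%, 89.2% and 100% of its promoter in C and 18.0%, 0% and 34.04% in H, and 100% in both CC_l libraries against 66.6%, 86.3% and 100% in HH. H lay below C in every library, while HH reached CC_l in 1 of 3. The obese difference was -47.4 points (-79.0 and -15.7, exact p = 0.02) and had p = 0.05 without HH replicate 1 or 2. H3K4me3 after weight loss was 78.4%, 80.3% and 83.6% in CC_s against 78.1%, 45.3% and 37.3% in HC, and 100% in both CCC libraries against 89.7%, 88.2% and 100% in HHC. All HC libraries lay below CC_s, replicate 1 only just, and HHC reached CCC in 1 of 3. The difference of -17.3 points (exact p = 0.035) had p from 0.05 to 0.1 without any single CC_s or CCC library or HHC replicate 1 or 2, and p = 0.085 at -15.0 points under the treatment field. Its widest H3K4me3 peak measured 10409 to 12004 bp in C and 1135 to 2155 bp in H.

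Scd2 (chr19:44293674-44306864, plus strand), a desaturase expressed in many tissues, had no test with p under 0.05. H3K4me3 was present at its promoter in 21 of 21 libraries, with 68.3%, 59.96% and 84.4% in C and 66.2%, 74.7% and 55.1% in H, which overlap. H3K27ac was 55.6%, 0% and 51.3% in C, 30.4%, 39.2% and 13.02% in H, 77.7% and 65.4% in CC_l and 80.9%, 100% and 57.9% in HH. H3K27me3 peaks lay at Scd1, Scd2, Me1, Acacb and Elovl6 in scattered libraries, among them CC_l replicate 1 with 75.3% at Scd1 and HH replicate 2 with 99.4% at Scd1. Diet and control libraries overlapped in H3K27me3 at each of these genes in every cohort.

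Taken over whole loci, each gene with 50 kb on either side, H3K27ac in obesity was lower at 7 of 10 (Mlxipl, Srebf1, Me1, Acaca, Acacb, Fasn and Scd1), where 24.3% of all genes were. The difference was -16.9 points at Fasn (exact p = 0.005), -14.5 at Scd1 (exact p = 0.045), -9.91 at Acacb (exact p = 0.01) and -4.84 at Acaca (exact p = 0.005), beside a median of -0.706 over all genes. H3K4me1 in obesity was lower at 5 of 10 (Srebf1, Acly, Acaca, Acacb and Fasn) against 6.87% of genes, with -10.6 points at Fasn (exact p = 0.01), and after weight loss at none, against 1.45%. H3K4me3 was lower in obesity at 3 of 10 (Acaca, Fasn and Scd1) against 3.28%, and after weight loss at 2 (Acaca, -3.89 points, exact p = 0.01, and Fasn, -9.80 points, exact p = 0.015) against 1.26%. H3K27ac after weight loss was lower at Acaca alone (-2.49 points, exact p = 0.04), against 0.63% of genes.

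Over the 20 start-site windows taken singly, H3K27ac in obesity was lower at 9, against 14.1% of all windows, and H3K4me3 at 4 against 3.61%. After weight loss H3K4me3 was lower at 5 against 1.25% and H3K27ac at 1 against 0.421%, the second window of Acaca. H3K27me3 was higher at 1 window in obesity, the main start of Mlxipl, against 0.746%, and at 2 after weight loss, both starts of Mlxipl, against 1.36%.

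Away from promoters, the 10 loci held 98 H3K27ac and 87 H3K4me1 regions, of which 12 and 8 were called gained or lost in at least 1 comparison. H3K27ac gave 5 calls in H, 1 in HC, 6 in HH and 3 in HHC, where 3.09%, 1.63%, 3.34% and 3.26% of all such regions were called. H3K4me1 gave 0, 0, 6 and 5 calls, where the shares were 2.12%, 0.868%, 5.34% and 5.35%. A region upstream of Srebf1 (chr11:60239970-60242538, 20.7 kb from the start) carried H3K27ac in 3 of 3 C, 1 of 2 CC_s, 2 of 2 CC_l and 1 of 2 CCC libraries and in 0 libraries of any diet group. A region upstream of Fasn (chr11:120855025-120859417, 32.7 kb away) was marked in 2 of 2 CC_s and CC_l libraries and in 0 of HC and HH, but in 2 HHC libraries. Around the second start of Elovl6 (chr3:129551125-129555688) H3K27ac was found in 3 of 3 HH and 3 of 3 HHC libraries and no other, and upstream of Scd2 (chr19:44265779-44269384) H3K4me1 was found in 3 of 3 HH, 3 of 3 HHC and 1 HC library and in no control.

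Among 34 other genes of lipogenesis and ChREBP control, 3 were lower in H3K4me3 in obesity (Rxra, Slc2a4 and Mcat) and 3 after weight loss (Slc2a4, Fads1 and Pnpla3). H3K27ac was lower at 8 in obesity (Insig2, Rxra, Slc2a4, Idh1, Mid1ip1, Fads1, Acsl1 and Pnpla3) and at 0 after weight loss, H3K4me1 lower at Mlx and higher at Acss2 in obesity, and no other test of these marks passed. Slc2a4, the insulin-responsive glucose transporter GLUT4 that supplies the pathway, had an H3K27ac difference of -35.4 points (exact p = 0.03) and H3K4me3 differences of -17.4 points (exact p = 0.0167) and -26.7 points (exact p = 0.03). Fads2, the delta-6 desaturase, gained H3K27me3 in H and HH, with a difference of 36.7 points in obesity (exact p = 0.0167) and peaks in 7 of 20 libraries. Fads2 was named because it gained a mark in more than 1 comparison, and the other genes of this list were named after their values were seen. The shares of all promoters given above for the same comparisons apply to these genes as well.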

How the data were processed

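The deposited peak lists of 84 CUT&Tag libraries were used, grouped by their titles. Per the labels and the study's methods, the authors trimmed reads (Trim Galore 0.6.6), aligned them to mm10 (Bowtie2 2.4.4, SAMtools 1.13) and called peaks library by library with SEACR 1.3 (stringent, no control library). The deposited signal columns hold unscaled coverage, so only peak position, width and rank by total signal within a library were used, and depth is unknown. Peaks were intersected with promoters (2000 bp either side of starts of protein-coding transcripts in the basic GENCODE annotation, GRCm38) by 1 bp or more, in Python 3.11.15 with NumPy 2.4.6 and pandas 2.3.3. Differences averaged over the cohorts were tested by exact permutation of libraries within cohorts for all 21851 promoters, and p-values were adjusted by Benjamini-Hochberg over the promoters with a peak in the comparison. The code was tested on simulated data. All 10 genes were named, with neighbours within 50 kb, genes of the wider list called in more than 1 comparison of a mark, and the 5 genes most like Mlxipl in H3K27me3. The genes, lists and windows were chosen with earlier results of these data known. Alternatives were other windows, equal or stronger peaks, the treatment field, a replicate block and libraries left out.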

Additional observations from a re-analysis of the deposited data

Results flagged for a closer look

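For 8 of the 80 promoter tests, the diet effect differed between the 12-week and the 25-week cohort by an exact permutation test of that difference (25-week effect minus 12-week effect, percentage points, two-sided, not adjusted for the 80 tests). In H3K4me3 under obesity, 5 genes lay lower after 12 weeks and slightly higher after 25 weeks. These were Mlxipl, with effects of -24.1 and 5.12 and a difference of 29.2 (exact p = 0.0333), Acly, with -27.6 and 4.62 and a difference of 32.2 (exact p = 0.0333), and Me1, with -32.2 and 4.16 and a difference of 36.3 (exact p = 0.0167). Elovl6 had effects of -15.8 and 4.14, which differed by 19.9 (exact p = 0.0167), and Scd1 had -47.2 and 6.11, which differed by 53.3 (exact p = 0.0167). The same test had a p under 0.05 at 23.6% of all promoters in this comparison. The median effect over all promoters was -16.3 points after 12 weeks and 7.52 points after 25 weeks. The change of sign was thus shared with promoters in general, and the 25-week effects of these 5 genes lay below that median. Both HH libraries and a CC_l library of H3K4me3 are among those whose title and treatment field disagree. These tests followed the titles and were not repeated with the treatment field.

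In H3K27ac under obesity, Srebf1 had effects of -64.2 and 2.41, a difference of 66.6 (exact p = 0.03), and Elovl6 had -46.7 and 18.7, a difference of 65.5 (exact p = 0.005), where 9.84% of all promoters had such a p. In H3K4me1 after weight loss, Scd1 had effects of -27.4 and 32.6, a difference of 60.04 (exact p = 0.04), where 0.448% of all promoters did. Over the whole genome the H libraries had a smaller median H3K27ac peak width than C, and their H3K4me3 peaks covered less sequence, and the part of this in these differences was not tested.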

How the results depend on the processing

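The number of the 80 promoter tests with p under 0.05, 17 as reported, was 14 to 19 with any single library left out, 9 with windows of 500 bp, 19 with 5000 bp, 16 with equal numbers of peaks, 12 with the stronger peaks, 12 with the treatment field and 28 by percentile of summed signal. The 8 promoter calls were 8 to 10 with a library left out, 4 with windows of 5000 bp, 15 with equal numbers of peaks and 13 with the stronger peaks. The H3K27me3 gain at Mlxipl in HC needs a peak of 119 bp in HC replicate 2, which falls short of an overlap of 200 bp. The gain there in HHC is not called with windows of 5000 bp, in which CCC replicate 1 has a peak. H3K27me3 at the Mlxipl promoter differed by 32.5 points in obesity (22.3 to 42.8 with a library left out), by 35.3 with the stronger peaks (exact p = 0.0667) and, as presence, by 75 percentage points (exact p = 0.05). After weight loss it differed by 38.4 points (28.48 to 44.98) and by 34.7 with windows of 500 bp (exact p = 0.11). Over the Mlxipl locus it differed by 7.18 points in obesity (4.29 to 10.1) and 7.23 after weight loss (6.23 to 8.49). The distal calls were 15 for H3K27ac (15 to 27 with a library left out, 23 without CC_s replicate 1, 27 without CC_l replicate 2, 26 without CCC replicate 3), 4 with equal numbers of peaks and 3 with the stronger peaks. For H3K4me1 they were 11 (11 to 29, 29 without CCC replicate 1, 20 without CC_l replicate 1 or HHC replicate 2, 19 without CC_l replicate 2, 18 without HH replicate 3), 7 and 6. The H3K4me1 difference at Mlxipl in obesity changed sign with windows of 5000 bp (-0.62 points) and by percentile (-1.72). The causes were not tested.

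Leaving out HC replicate 3, HH replicate 1 and HHC replicate 3 together, libraries with few adipocyte markers marked, was chosen after seeing the data, and so were the single start-site windows and the loci of the other marks. It gave 10 tests with p under 0.05 and 10 promoter calls, and the Mlxipl locus difference after weight loss was 6.12 points (exact p = 0.0833). Whether replicate numbers pair the libraries was not settled. Of 36 same-numbered pairs, 7 had deviations correlated above 0.1 and 5 below -0.1, from -0.434 to 0.208. With groups of 2 or 3 libraries such correlations cannot decide it. With a replicate block 0 of the 80 tests had a p under 0.05, by the exact sign-flip test, where the smallest p it can give is 0.0625 to 0.25. The Mlxipl H3K27me3 promoter difference under the replicate block was 40.3 points in obesity (exact p = 0.25) and 36.8 after weight loss (exact p = 0.0625), and that of the locus 9.12 and 7.20 points. Depth is unknown from peak lists, so no detection limit can be given.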

Other observations

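Presence calls at the 34 other genes of lipogenesis and ChREBP control, looked at after the main values were seen, were 9 in all. The same rules gave 6142 calls at all 21851 promoters, so the 9 are listed as a description only. Of all promoters, 1.32% gained H3K4me3 in HH, and 4.47% gained or lost H3K4me1 in HHC. H3K27me3 was gained at 1.29% of them in H, 1.05% in HH and 1.37% in HHC, and lost at 0.732% in HHC. H3K4me3 was gained at Fgf21, a hormone gene that ChREBP is known to induce, in HH. H3K4me1 was gained in HHC at Khk, which encodes the enzyme that commits fructose to metabolism, and at Fads2. H3K27me3 was gained at Slc2a4 and Scd3 in HH, at Pnpla3 in HHC and at Fads2 in H and HH, and it was lost at Arrdc4, which encodes an arrestin-like protein, in HHC.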
